A study of Mus musculus with 6 samples.

Results

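The genes described here are 33 genes of protein folding in the endoplasmic reticulum (ER): chaperones of the ER lumen, their co-chaperones, disulfide isomerases and related thioredoxin-like proteins, prolyl isomerases, and enzymes and lectins that fold glycoproteins. They were taken by gene symbol from the 54532 genes of the raw count table, and all 33 had reads. The counts came from leptotene/zygotene (L/Z) spermatocytes, germ cells at the start of meiotic prophase, which were sorted with the DNA dye Hoechst. The mouse testes were taken at 12 days postpartum (dpp). The 3 control and 3 Eef1g-cKO libraries were compared, and the comparison asked what loss of the translation elongation factor subunit eEF1G does to the RNA of these cells. Polyadenylated RNA was amplified as full-length cDNA with a low-input kit and no molecular identifiers. Floors given for low counts therefore cover counting error only.

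The control libraries carry the genotype label wild type, and the methods call the animals littermates. Their exact Eef1g and Cre alleles are not given in the sources used here. The Eef1g-cKO males carried a floxed Eef1g allele on a C57BL/6J background, and Stra8-GFPCre, a transgene active in male germ cells from differentiating spermatogonia on, deleted several of its exons. Deletion was therefore restricted to germ cells and began before the stage sorted. The sources do not say whether a library came from 1 animal or from pooled animals, so the p-values measure the spread between these libraries, which may be technical.

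Proteins that enter the ER are held by the HSP70-type chaperone BiP and its J-domain partners, are glycosylated and bound by the lectins calnexin and calreticulin, and receive their disulfide bonds from protein disulfide isomerases. When unfolded protein accumulates, the sensors ATF6, IRE1 and PERK start the unfolded protein response (UPR), in which ATF6 and XBP1 raise transcription of many folding genes through promoter elements called ERSE. In spermatogenic cells several of these proteins have testis-specific relatives, such as calmegin for calnexin.

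Library totals ran from 763133 reads (Eef1g-cKO replicate 3) to 2617648 (Eef1g-cKO replicate 2), so that 3 reads stood for 1.18 to 4.63 counts per 1000000 reads (CPM, scaled by TMM). Eef1g itself was at 220 ± 7.34 CPM in control and 136 ± 16 in Eef1g-cKO libraries (SD, n = 3). It fell by 0.68 on the log2 scale (SE 0.20, edgeR adjusted p = 0.029). That call was lost in 10 of 21 other fits, among them those without any 1 control library or Eef1g-cKO replicate 1, with no low-count filter (adjusted p = 0.0837), with thinned libraries (0.058) and with a GC content offset (0.14), and reads from exons that remain are counted with the gene. The summed CPM of 10 L/Z markers was 9500 to 10461 in control and 18966 to 24672 in Eef1g-cKO libraries, with 5 of them higher (Sycp1, Sycp2, Sycp3, Dmc1 and Hormad1) and Stra8 lower. The 11 spermatogonial markers summed to 1514 to 1732 against 705 to 844, the 8 Sertoli markers to 81.7 to 281 against 1.54 to 45.3, and the 8 peritubular and stromal markers to 163 to 288 against 21.6 to 70.6. Leydig markers stayed at or under 10.7 CPM in every library, with Cyp17a1 and Hsd3b1 at 0. The 8 markers of pachytene and later cells summed to 25.2 to 42.5 CPM in control and 3.09 to 16.1 in Eef1g-cKO libraries. The 4 endothelial markers reached at most 35.6 CPM, and the 7 blood and macrophage markers at most 77.9, with Cd68 and Csf1r at 0 in all libraries. In bulk RNA, fewer cells of a type and less RNA per cell cannot be told apart. By immunostaining of sorted cells, the study reports a comparable share of L/Z spermatocytes in both genotypes. The part of these marker differences in the results below was not tested.

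In Eef1g-cKO cells, 12 of the 29 ER folding genes that had enough reads for the test were higher than in control and none was lower, at an edgeR adjusted p under 0.05. The genes that rose were Dnajc3, Hspa5, Tmx1, Manf, Creld2, Pdia6, Dnajb11, Hsp90b1, Prdx4, Calr, P4hb and Canx, by 1.48-fold to 3.22-fold. Over all 8513 genes tested, 7.8% were called higher and 6.01% lower, while 41.4% of the tested members were called higher. The members were chosen with earlier results of these data known, so these shares are a description and not a test. Of the other 17 tested members, 10 had a positive and 7 a negative log2 fold change, none past the test. At an unadjusted p under 0.05, 13 members were higher and 1, Prkcsh, was lower; DESeq2 and limma-voom each called 12 higher and 0 lower.

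With the added limit of an absolute log2 fold change over 1, 5 members stayed higher (Dnajc3, Hspa5, Tmx1, Manf and Creld2), beside 3.42% of all genes tested. The study uses the same fold limit, but with a p under 0.05 that it does not call adjusted. The CPM of every Eef1g-cKO library lay above that of every control library for 14 tested members, beside 16.4% of all tested genes. The opposite arrangement held for 1 tested member, Prkcsh, beside 18.1% of all tested genes. The median log2 fold change of the 29 tested members was 0.57 and that of all tested genes was -0.05. Upper-quartile scaling moved the median of all genes by -0.12 and library totals alone moved it by -0.19, and each shifted the members by about as much. The members' median lay 0.62 above that of all genes under TMM, 0.47 above it with at least 10 reads in every library and 0.85 above it with no low-count filter. The split of higher to lower calls over all genes went from 664 to 512 under TMM to 463 to 639 under upper-quartile scaling and 333 to 643 under library totals, while 10 and 8 members stayed higher.

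**Figure D1:**
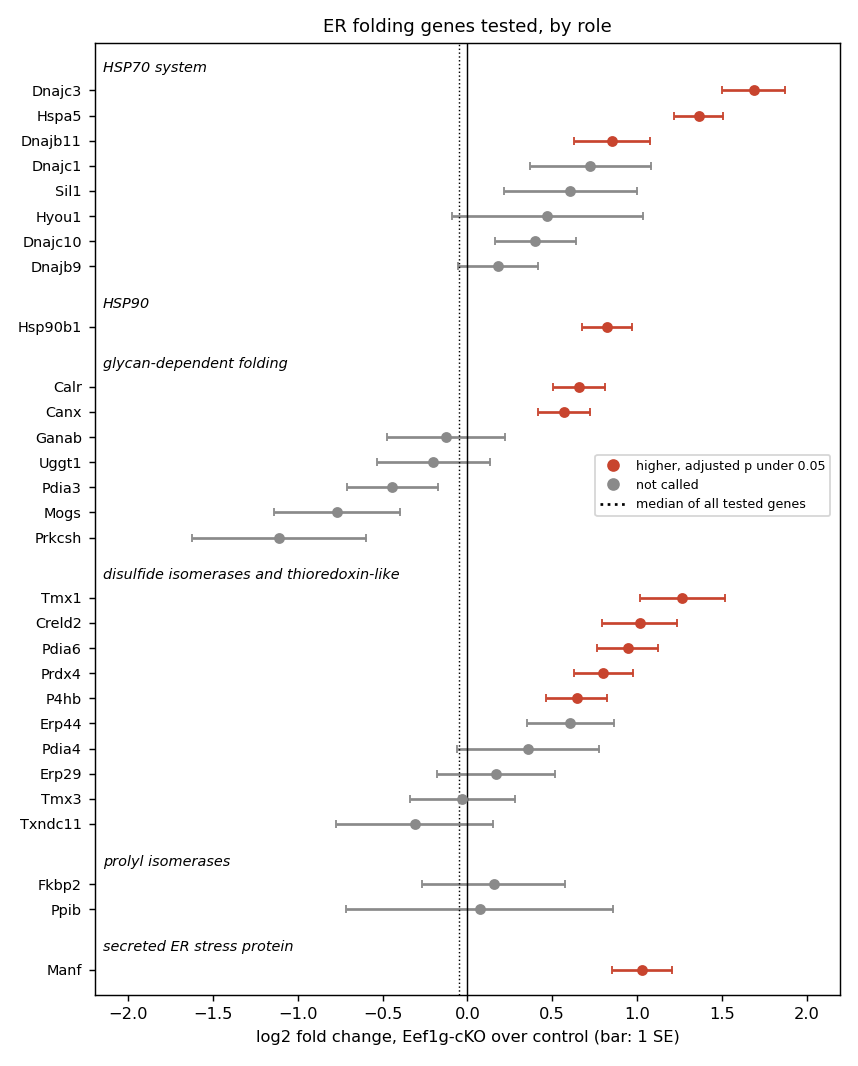
Log2 fold change of Eef1g-cKO over control (x axis, with 1 SE) for the 29 tested ER folding genes, grouped by role; red marks the 12 genes higher at an edgeR adjusted p under 0.05, and the dotted line is the median of all tested genes, -0.05. Called genes lie in the HSP70, HSP90, lectin, disulfide and Manf groups, from 0.57 for Canx to 1.69 for Dnajc3, and no tested member was called lower.

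The 4 members left out of the test had few reads in every library. Sdf2l1, a partner of ER J-domain proteins, had 5, 8 and 15 reads in control and 7, 29 and 5 in Eef1g-cKO libraries. Pdia5, a disulfide isomerase, had 5, 23 and 8 against 22, 11 and 5 reads. Txndc5, another disulfide isomerase, had 11, 15 and 8 against 4, 0 and 2, and Fkbp14, a prolyl isomerase that acts on collagens, had 11, 21 and 4 against 0, 8 and 0. Fkbp14 overlaps Plekha8 on the opposite strand, which had 686 reads over all libraries against 44 for Fkbp14. The groups overlapped for Sdf2l1, Pdia5 and Fkbp14 in CPM, whereas the Txndc5 values of the Eef1g-cKO libraries were all below those of control, with 2 of the 3 at or under the 3-read floor. Of the 29 tested members, 28 passed the read filter in all 3 control libraries, and all 12 called genes did, so no call came from a gene admitted through the Eef1g-cKO libraries alone.

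The promoters of the members were searched for UPR elements, because 12 of the tested members were called higher. RefSeq promoter windows on GRCm38.p6, from 250 bases before to 50 after each annotated start, were held for 28 of the 33 members and for 27025 genes in all; none was held for Hyou1, Tmx3, Sil1, Manf and Erp29. An ERSE was taken as CCAAT, any 9 bases and CCACG on either strand, and an ERSE-II as ATTGG, any base and CCACG on either strand. No member window held both. The stretches around the matches are shown along the strand of each gene because all 8 genes with such a match were among the 12 that rose, with the match in capitals: Hspa5 (chr2:34772005-34772063, plus strand), Dnajc3 (chr14:118937807-118937865, plus), Creld2 (chr15:88819500-88819558, plus), Pdia6 (chr12:17266471-17266529, plus), Hsp90b1 (chr10:86705513-86705676, minus), Calr (chr8:84847055-84847113, minus), Canx (chr11:50325780-50325838, minus) and, for the ERSE-II, Dnajb11 (chr16:22857832-22857882, plus).
Hspa5: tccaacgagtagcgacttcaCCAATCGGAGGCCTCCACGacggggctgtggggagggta
Dnajc3: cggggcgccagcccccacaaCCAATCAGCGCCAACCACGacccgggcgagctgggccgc
Creld2: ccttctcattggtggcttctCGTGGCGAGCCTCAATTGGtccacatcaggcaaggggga
Pdia6: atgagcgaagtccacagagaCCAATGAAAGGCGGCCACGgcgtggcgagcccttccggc
Hsp90b1: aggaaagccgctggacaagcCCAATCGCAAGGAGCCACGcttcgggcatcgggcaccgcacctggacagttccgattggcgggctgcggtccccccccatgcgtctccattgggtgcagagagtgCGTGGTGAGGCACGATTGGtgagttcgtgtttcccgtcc
Calr: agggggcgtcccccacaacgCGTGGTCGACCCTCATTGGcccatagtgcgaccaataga
Canx: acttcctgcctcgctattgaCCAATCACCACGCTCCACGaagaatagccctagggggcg
Dnajb11: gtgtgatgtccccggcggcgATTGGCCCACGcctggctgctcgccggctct

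In Hspa5, Dnajc3, Pdia6 and Canx the ERSE read CCAAT first along the gene, in Creld2 and Calr it lay on the opposite strand, and Hsp90b1 held 1 match in each orientation. The matches began between 65 bases (Hspa5) and 212 bases (the farther match of Hsp90b1) before the annotated start. The ERSE-II of Dnajb11 lay just after its annotated start. Some windows held CCAAT letters beyond the marked match, as in Hsp90b1, where ATTGG occurs between the pair of matches.

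An ERSE was found in 7 of the 28 members with a window (25%) and in 37 of all 27025 genes (0.137%). An ERSE-II was found in 1 member and in 12 genes (0.0444%). Of the 8 members with either match, 8 of 8 were tested and higher, against 3 of the 16 tested members with a window and no match (P4hb, Prdx4 and Tmx1). The 8 held places 1 to 14 among the members by control level per length, with SE of the log2 fold change 0.15 to 0.23. The 16 held places 4 to 30, with SE 0.17 to 0.79, so a call was harder to reach for many of them. The part of level in this split was not tested. Of the 5 tested members without a window, Manf was higher. Among genes outside the list, 15 with either match were tested and 2 of them (13.3%) were higher, Herpud1 and Lrif1, beside 8.11% of the 6474 tested genes with a window. The UPRE letters TGACGTGG occurred in windows of 2 members, Txndc11 and Txndc5 (7.14%), and in 0.714% of all genes, and the CARE letters TGATGNAA, bound by ATF4 dimers, occurred in a window of 1 member, Txndc5 (3.57%), and in 4.51% of all genes. These are matches of letters in short windows, the choice of motifs was made with the members' values known, and binding was not measured. ER folding genes are the known targets of ERSE, so their excess of matches could be foreseen and is not a result of these libraries.

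**Figure D2:**
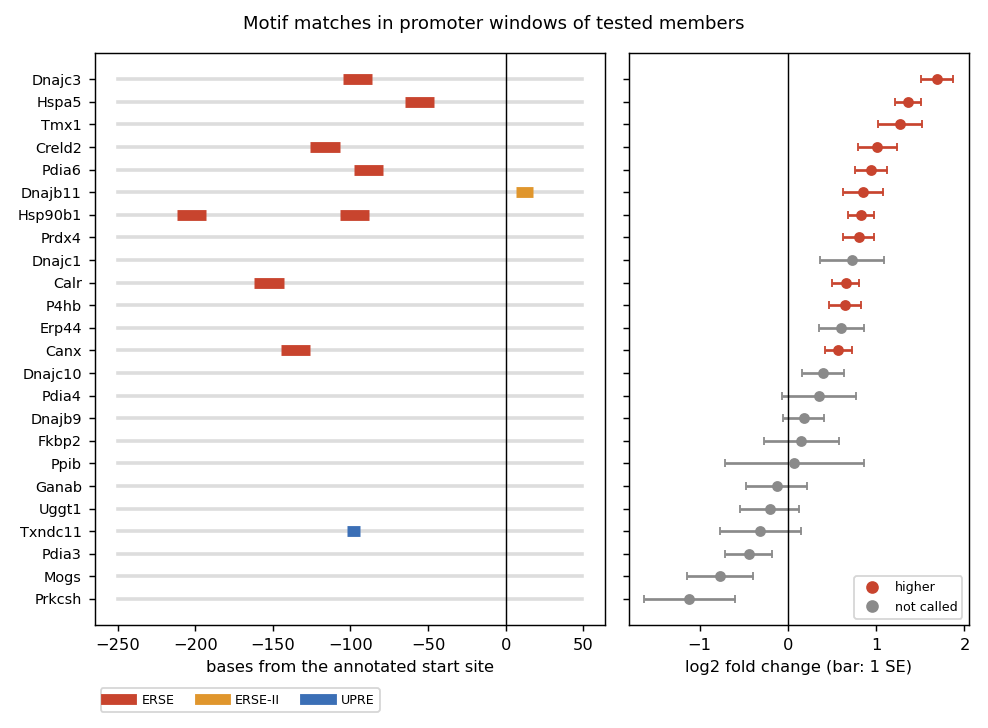
Positions of ERSE, ERSE-II and UPRE letters in the promoter windows of the 24 tested members that have one (left, bases from the annotated start) beside each gene's log2 fold change with 1 SE (right, red where called higher), ordered by fold change. The 7 genes with an ERSE and Dnajb11 with an ERSE-II were all called higher, and Tmx1, Prdx4 and P4hb were called higher with no such match in the window.

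Dnajc3 and Hspa5, both of the HSP70 system, had the largest log2 fold changes of the tested members. Hspa5 encodes BiP, the main HSP70 of the ER lumen and a regulator of the UPR sensors (ENSMUSG00000026864, chr2:34771970-34777547, plus strand, as in the deposited table on GRCm38). Its level was 1924, 1822 and 1576 CPM in control replicates 1 to 3 and 4074, 4152 and 5474 CPM in Eef1g-cKO replicates 1 to 3. The groups lay far apart, with no overlap. Hspa5 thus rose by 1.36 on the log2 scale, or 2.57-fold (SE of the log2 value 0.15, edgeR adjusted p = 8.43e-06), and it stayed past the test in all 21 other fits, at 1.16 to 1.47. By CPM, Hspa5 moved from rank 24 among tested genes in control to rank 9 in Eef1g-cKO cells.

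Dnajc3 (ENSMUSG00000022136, chr14:118937976-118981697, plus strand) encodes the J-domain protein p58IPK, which hands unfolded clients to BiP and also inhibits eIF2 alpha kinases. Its level was 329, 309.7 and 212 CPM in control and 845, 819 and 1079.7 CPM in Eef1g-cKO libraries. The groups did not overlap, and control replicate 3 was the lowest and Eef1g-cKO replicate 3 the highest library. This was the largest log2 fold change of the tested members, 1.69 (SE 0.19, edgeR adjusted p = 1.23e-05), and it stayed between 1.38 and 1.82 in the other fits, past the test in each. Its rank by CPM rose from 539 to 115.

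Dnajb11 (ENSMUSG00000004460, chr16:22857845-22879634, plus strand) encodes ERdj3, a soluble J-domain partner of BiP. Its level was 129.8, 109 and 117 CPM in control and 201, 271 and 162 CPM in Eef1g-cKO libraries. The groups did not overlap, but the Eef1g-cKO libraries were spread over a wider range than the control ones. The log2 fold change was 0.85 (SE 0.23, edgeR adjusted p = 0.0162), and the call was lost without control replicate 2 (adjusted p = 0.0832), control replicate 3 (0.0749) or Eef1g-cKO replicate 2 (0.0921), and with library totals alone (0.0836).

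The other 5 tested genes of the HSP70 system had positive log2 fold changes under TMM scaling, with Dnajb9 turning to about 0 under library totals, and none passed the test. Dnajc1, a membrane J-domain protein, was at 0.73 (SE 0.36); it overlaps the more abundant gene Mllt10, and the counting is not stated to use strand. Sil1, a nucleotide exchange factor of BiP, was at 0.61 (SE 0.39), and its Eef1g-cKO libraries, at 32.3 to 43.9 CPM, were all above its control libraries, at 22.9 to 29.1 CPM. Hyou1, the large HSP70-related exchange factor, was at 0.47 (SE 0.56), and Dnajc10, a J-domain protein with disulfide reductase activity, was at 0.40 (SE 0.24). Dnajb9, which encodes ERdj4 and brings BiP to the sensor IRE1, was at 0.18 (SE 0.23). Its 121, 183 and 219 CPM in control overlapped its 219.9, 218 and 153 CPM in Eef1g-cKO libraries.

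Hsp90b1 (ENSMUSG00000020048, chr10:86690209-86705509, minus strand) encodes GRP94, the HSP90 of the ER lumen, which folds integrins and Toll-like receptors among other clients. It was the second most abundant member, at 1727, 1314 and 1323 CPM in control and 2309, 2483 and 2939 CPM in Eef1g-cKO libraries. The groups did not overlap, and control replicate 1 stood above the other control libraries. This gave a log2 fold change of 0.82, with SE 0.15 (edgeR adjusted p = 0.00117).

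Among the 7 genes of glycan-dependent folding, the lectin chaperones rose, and Pdia3, Uggt1 and the glycan-trimming enzymes did not pass the test. Calr (ENSMUSG00000003814, chr8:84841850-84846934, minus strand) encodes calreticulin, the soluble lectin and calcium store of the lumen. It stood at 444, 424 and 409.8 CPM in control and 615, 692 and 707 CPM in Eef1g-cKO libraries, with little spread within each group and no overlap. Its log2 fold change was 0.66 (SE 0.15, edgeR adjusted p = 0.00702), lost under library-total scaling (0.46, adjusted p = 0.0601).

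Canx (ENSMUSG00000020368, chr11:50293961-50325673, minus strand) encodes calnexin, the membrane-bound lectin. It stood at 453, 446 and 499 CPM in control and 697, 742 and 635 CPM in Eef1g-cKO libraries, and the groups did not overlap. Its rise of 0.57 on the log2 scale (SE 0.15, edgeR adjusted p = 0.0164) was the smallest of the called members and the least stable call. It was lost in 10 of the 21 other fits, among them those without control replicate 1 (adjusted p = 0.0708), 2 (0.0909) or 3 (0.0502) and that with a GC content offset (log2 fold change 0.27, adjusted p = 0.279).

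Pdia3 (ENSMUSG00000027248, chr2:121413775-121438687, plus strand) encodes ERp57, the disulfide isomerase that works bound to calnexin and calreticulin. In contrast to its lectin partners it stood at 82.4, 140.2 and 146 CPM in control and 103, 85.1 and 83.4 CPM in Eef1g-cKO libraries. The groups overlapped through control replicate 1, the lowest library of all, and the log2 fold change was -0.44 (SE 0.27, edgeR adjusted p = 0.30). The gene overlaps Catsper2 on the opposite strand, which had 214 reads in all libraries against 1033 for Pdia3.

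The remaining enzymes of this group gave no call. Prkcsh, the beta subunit of glucosidase II, was at 32.1, 32.5 and 33 CPM in control and 22.6, 15.7 and 4.63 CPM in Eef1g-cKO libraries. Its groups did not overlap, but Eef1g-cKO replicate 3 was at the 3-read floor and the log2 fold change of -1.11 had an SE of 0.51 (edgeR adjusted p = 0.165). Mogs, glucosidase I, was at -0.77 (SE 0.37, adjusted p = 0.185). Uggt1, which returns misfolded glycoproteins to the lectins, was at -0.20 (SE 0.33), and Ganab, the catalytic subunit of glucosidase II, was at -0.13 (SE 0.35).

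Of the 12 disulfide isomerases and related genes, 10 were tested and 5 rose. Pdia6 (ENSMUSG00000020571, chr12:17266545-17284770, plus strand) encodes P5, an isomerase that associates with BiP. It was the most abundant of them, at 804, 590.0 and 669 CPM in control and 1185, 1075 and 1718 CPM in Eef1g-cKO libraries, with no overlap and with Eef1g-cKO replicate 3 far above the other libraries. Its log2 fold change was 0.94 (SE 0.18, edgeR adjusted p = 0.0018).

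Tmx1 (ENSMUSG00000021072, chr12:70453095-70468040, plus strand) encodes a membrane-anchored thioredoxin-like oxidoreductase. It had 99.99, 77.2 and 73.9 CPM in control and 203, 253 and 141 CPM in Eef1g-cKO libraries. Again the groups did not overlap, but here Eef1g-cKO replicate 3 was the lowest of its group. Tmx1 rose by 1.27 on the log2 scale (SE 0.25, edgeR adjusted p = 0.0023), the largest outside the HSP70 system.

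Creld2 (ENSMUSG00000023272, chr15:88819646-88826683, plus strand) encodes a secreted ER protein with isomerase activity that is known as an ER stress gene. It had 118, 103 and 86.2 CPM in control and 182, 243 and 192 CPM in Eef1g-cKO libraries, all of the latter above all of the former. Creld2 rose by 1.02 on the log2 scale (SE 0.22, edgeR adjusted p = 0.00509), past the test in every other fit (0.83 to 1.32).

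Prdx4 (ENSMUSG00000025289, chrX:155323918-155340754, minus strand) encodes the peroxiredoxin of the ER lumen, which uses hydrogen peroxide to make disulfide bonds. It had 321, 335 and 353 CPM in control and 636, 665 and 451 CPM in Eef1g-cKO libraries, with no overlap and with Eef1g-cKO replicate 3 nearest to control. Its rise on the log2 scale was 0.80 (SE 0.17, edgeR adjusted p = 0.00458).

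P4hb (ENSMUSG00000025130, chr11:120560298-120573253, minus strand) encodes PDI itself, the abundant general isomerase and a subunit of collagen prolyl hydroxylase. It had 185, 198 and 206 CPM in control and 309, 330.1 and 281 CPM in Eef1g-cKO libraries, and the groups did not overlap. It rose by 0.64 on the log2 scale (SE 0.18, edgeR adjusted p = 0.0209). Leaving out control replicate 1 (adjusted p = 0.0871), 2 (0.0811) or 3 (0.0686), or Eef1g-cKO replicate 2 (0.0545), ended the call, as did upper-quartile scaling (0.0596), library totals alone (0.127) and at least 10 reads in every library (0.0659).

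The other tested genes of this group were not called. Erp44, which retains client proteins in the early secretory pathway, was at 0.61 (SE 0.25, edgeR adjusted p = 0.125), with 71.0 to 135 CPM in control and 143 to 192 CPM in Eef1g-cKO libraries. Pdia4 (ERp72) was at 0.36 (SE 0.42) and Erp29, a non-catalytic relative, at 0.17 (SE 0.35). Erp29 overlaps Naa25 and Tmem116 on the opposite strand, with at most 555 reads in either against 607 for Erp29. Tmx3, a membrane-bound isomerase, was at -0.03 (SE 0.31) and Txndc11, a partner of the degradation factor EDEM2, at -0.31 (SE 0.46).

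Manf (ENSMUSG00000032575, chr9:106838312-106891979, minus strand) encodes a small secreted protein of the ER that binds BiP and is raised in ER stress. It had 201, 252 and 251 CPM in control and 439, 434 and 568 CPM in Eef1g-cKO libraries, with a wide gap between the groups. The log2 fold change was 1.03 (SE 0.18, edgeR adjusted p = 0.000908), past the test in all 21 other fits. The annotated gene overlaps 4 others, 1 of them on the same strand, with at most 546 reads in any of them against 3210 for Manf.

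The prolyl isomerases gave values near 0 with wide errors. Ppib (ENSMUSG00000032383, chr9:66060222-66066623, plus strand) encodes cyclophilin B, which speeds proline isomerisation in collagens and other secreted proteins. It had 12.2, 3.15 and 8.96 CPM in control and 10.5, 7.06 and 7.72 CPM in Eef1g-cKO libraries, which overlapped throughout. Its log2 fold change was 0.07 (SE 0.79, edgeR adjusted p = 0.965), on 74 reads over all libraries. Fkbp2, an FK506-binding isomerase, was at 0.15 (SE 0.42). Both turned slightly negative under library-total scaling, and Ppib did so under upper-quartile scaling.

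**Figure D3:**
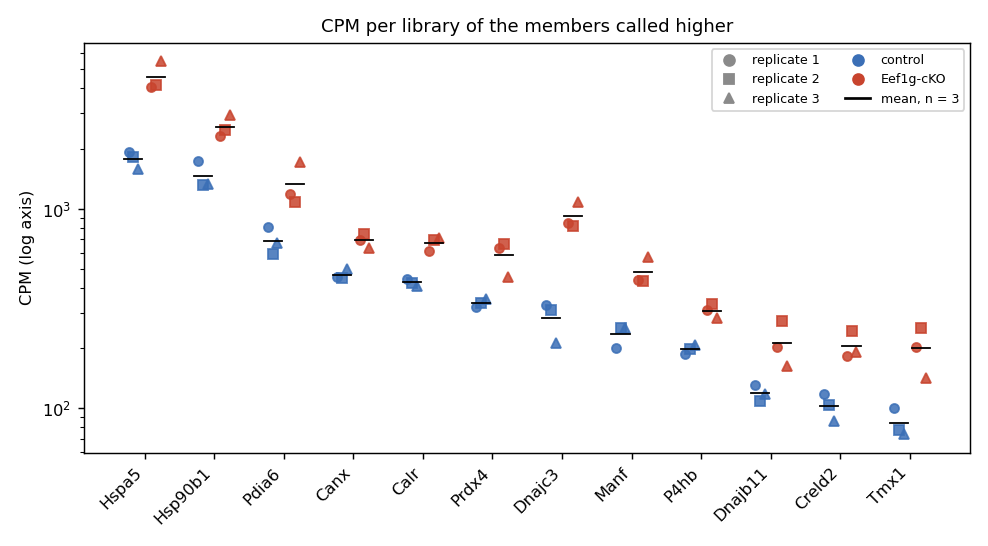
CPM of the 12 called members in each library (y axis, log scale), control in blue and Eef1g-cKO in red, with the symbol giving the replicate and a line the mean of 3 libraries. All Eef1g-cKO points lie above all control points of the same gene; replicate 3 of Eef1g-cKO is the highest of its group for 6 genes, such as Hspa5, and the lowest for 5, such as Tmx1.

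The called members differed in which Eef1g-cKO library was highest or lowest. Some of the gaps were small, such as 692 and 707 CPM for Calr in replicates 2 and 3, and the pattern was not tested. Replicate 3, the smallest library, was the highest of its group for Hspa5, Dnajc3, Hsp90b1, Pdia6, Manf and Calr and the lowest for Dnajb11, Tmx1, Prdx4, P4hb and Canx. It also had the largest share of reads in ribosomal RNA genes, 9.23% against 2.73% to 6.29% in the other libraries. Without this library the same 12 members were called.

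Per length, using the deposited gene length, Hspa5 and Hsp90b1 dominated the group. In CPM per kilobase (RPKM), control cells had 419.5 ± 42.3 (SD, n = 3) for Hspa5 and 361 ± 58.5 for Hsp90b1, and the libraries of the pair overlapped. Pdia6 followed at 184 ± 28.9, without overlap with Hsp90b1, then Prdx4 at 159.7 ± 7.76 and Calr at 148 ± 6.02. By library, Pdia6 overlapped Prdx4, and Prdx4 overlapped Calr. At the other end, Ppib was at 2.45 ± 1.39 RPKM, Fkbp14 at 1.74 ± 1.09 and Txndc5 at 1.54 ± 0.474. In Eef1g-cKO cells Hspa5 reached 1079.8 ± 186 RPKM and Hsp90b1 639 ± 80.7, and the libraries of the pair no longer overlapped.

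The order of the levels was otherwise alike in the 2 genotypes. The first 5 places were held in the same order, whereas Dnajc3 rose from place 11 (55.1 ± 12.2 RPKM) to place 6 (178 ± 27.9 RPKM). Pdia3 went from place 13 to 17 and Prkcsh from 23 to 29. Of the 10 members in the top 10% of tested genes by control RPKM, 9 were called higher, while 158 of all 852 tested genes in that top 10% (18.5%) were. The SE of the log2 fold change was 0.15 for Hspa5 and 0.79 for Ppib.

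**Figure D4:**
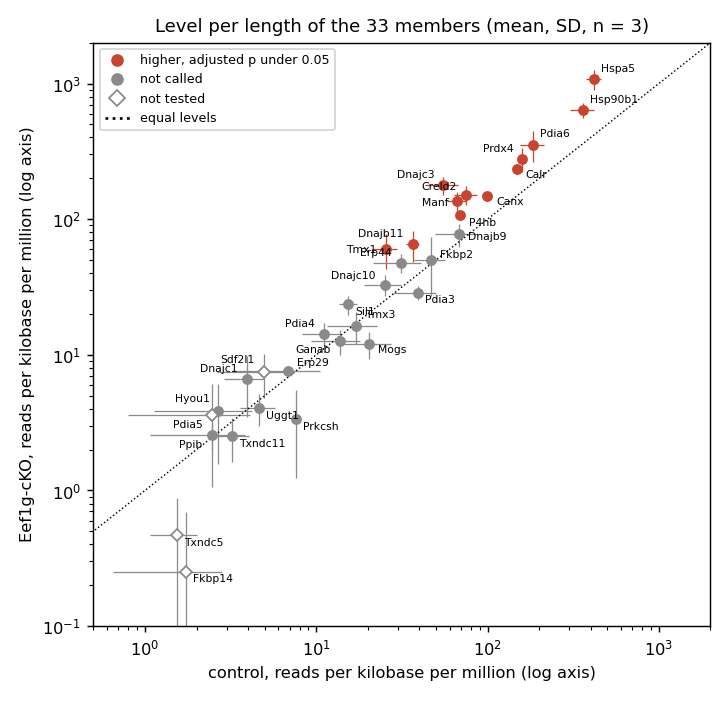
Mean level per length of the 33 members in control (x) and Eef1g-cKO (y) cells, in RPKM on log axes, with SD bars (n = 3); bars that pass the axis limits are not drawn further. The red points, the 12 called members, lie above the dotted line of equal levels and mostly at the upper right, with Hspa5 at 419.5 and 1079.8, and the open points are the 4 members not tested.

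Together the 33 genes took 0.808%, 0.730% and 0.736% of the reads in control libraries and 1.22%, 1.31% and 1.31% in Eef1g-cKO libraries. The groups did not overlap. Hspa5 alone made up 22.8% to 25.9% of these reads in control and 31.0% to 35.4% in Eef1g-cKO libraries. Without Hspa5 the summed level was 5209 to 5879 CPM in control and 8786 to 9986 CPM in Eef1g-cKO libraries, so the sum did not rest on that gene.

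Ratios of reads between 2 genes of the same library do not depend on how libraries are scaled. The 7 pairs were picked after the values were seen and are given without a test. The ratio of Hspa5 to Hsp90b1 was 1.11, 1.39 and 1.19 in control and 1.76, 1.67 and 1.86 in Eef1g-cKO libraries. The ratio of Hspa5 to Hspa8, the constitutive HSP70 of the cytosol, was 1.55, 1.47 and 1.27 against 5.91, 4.80 and 7.88. In both cases the groups did not overlap, and the second ratio differed by 2.09 on the log2 scale.

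Within the calnexin cycle, Pdia3 to Calr was 0.186, 0.331 and 0.355 in control and 0.167, 0.123 and 0.118 in Eef1g-cKO libraries. Pdia3 to Canx was 0.182, 0.314 and 0.291 against 0.147, 0.115 and 0.131. The Eef1g-cKO values were below all control values, though control replicate 1 came close to them in both ratios. Pdia3 to P4hb differed by -1.04 on the log2 scale and Dnajc3 to Dnajb9 by 1.51, without overlap, while Pdia6 to P4hb overlapped.

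**Figure D5:**
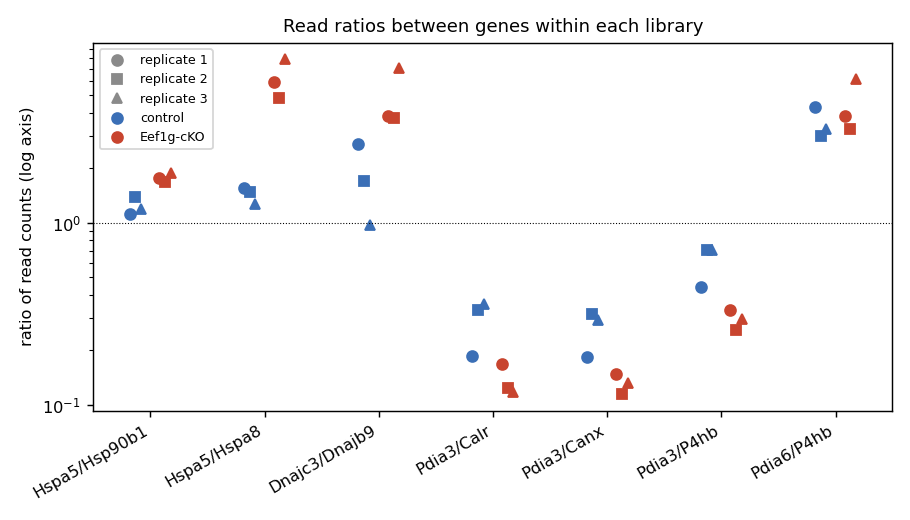
Ratio of read counts of 2 genes within each library (y axis, log scale) for 7 pairs, control in blue and Eef1g-cKO in red, with the symbol giving the replicate. The Hspa5 to Hspa8 ratio runs from 1.27 to 1.55 in control and from 4.80 to 7.88 in Eef1g-cKO libraries, and only the Pdia6 to P4hb ratios overlap between the groups.

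Of 34 other ER folding genes, those outside the 33, 19 were tested, and 1 was higher and 1 lower. That is 5.26% in each direction, near the 7.8% and 6.01% of all tested genes. Their SE ran from 0.20 (Selenof) to 0.95 (Cdnf), against 0.15 (Hspa5) to 0.25 (Tmx1) for the called members. A call was therefore harder to reach for many of them, and the part of level in this contrast was not tested. Tmx4, a relative of Tmx1, was at 106 ± 35.9 CPM in control and 311 ± 31.9 in Eef1g-cKO libraries (SD, n = 3). It rose by 1.54 on the log2 scale (SE 0.23, edgeR adjusted p = 0.000256). Txndc16, a thioredoxin-domain glycoprotein, fell from 79.4 ± 7.19 to 31.9 ± 10.3 CPM, at -1.27 (SE 0.33, adjusted p = 0.0153), a call lost without control replicate 1 (0.0772) or 3 (0.069). The testis chaperone Clgn, calmegin, a relative of Canx, was at 0.11 (SE 0.40, adjusted p = 0.888). The oxidase gene Ero1l, which recharges PDI, was at 0.13 (SE 0.30, adjusted p = 0.832). Both are named although they fall outside the rule for named genes.

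Of 26 genes of the UPR and of ER-associated degradation (ERAD), 22 were tested. By edgeR 4 were higher (18.2% of those tested, against 7.8% of all tested genes) and none was lower. DESeq2 also called 4 higher and limma-voom 5, neither called any lower, and 6 were higher and 1 lower at an unadjusted edgeR p under 0.05. Herpud1, which organises the ERAD ubiquitin ligase complex, had the largest value. It went from 27.3 ± 5.94 CPM in control to 246 ± 18.3 in Eef1g-cKO libraries (SD, n = 3) and rose by 3.18 on the log2 scale (SE 0.25, edgeR adjusted p = 5.87e-07). Erlec1, a lectin of ERAD, was at 1.83 (SE 0.23, adjusted p = 4.78e-05) and Selenok, a selenoprotein of the ER membrane, at 1.23 (SE 0.15, adjusted p = 4e-05). The fourth was Atf4, the transcription factor downstream of PERK and other eIF2 alpha kinases. Its log2 fold change was 1.04. The transcripts of the sensors were not called: Atf6 was at 0.17 (SE 0.33), Ern1, which encodes IRE1, at 0.56 (SE 0.39) and Eif2ak3, which encodes PERK, at 0.07 (SE 0.50). Xbp1 was at -0.58 (SE 0.40), and gene counts do not separate its spliced form. These 5 are named for their place in the pathway, outside the rule for named genes.

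Of 32 chaperones of the cytosol and mitochondria, 29 were tested, and 2 were higher and 3 lower. These shares, 6.9% and 10.3%, were near the 7.8% and 6.01% of all tested genes, and the median log2 fold change of the list was 0.07. Hspe1, the mitochondrial co-chaperonin, was at -1.22 (SE 0.16, edgeR adjusted p = 7.09e-05) and Hspa8 at -0.73 (SE 0.15, adjusted p = 0.00257). Hsp90ab1, a cytosolic HSP90, was at -0.86 (SE 0.25, adjusted p = 0.0293), a call lost without control replicate 1 (0.178) or Eef1g-cKO replicate 1 (0.121) or 2 (0.106), and with a gene length offset (0.0818) or a GC content offset (0.0708). Ptges3, an HSP90 co-chaperone, was at 0.54 (SE 0.17, adjusted p = 0.0393) and Dnaja2, a J-domain partner of Hspa8, at 0.47 (SE 0.15, adjusted p = 0.0443). Both calls were lost in over 10 of the 21 other fits, and both were lost whenever any control library was left out.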

How the data were processed

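The authors trimmed reads with fastp, aligned them to GRCm38 with HISAT2 2.2.1 and deposited raw read counts per Ensembl gene from featureCounts 2.0.6; strand and multimapping settings are not given in the sources used here. From the deposited counts, edgeR 4.0.16 (R 4.3.3; limma 3.58.1 and DESeq2 1.42.0 as alternatives) was run on 8513 genes passing filterByExpr (minimum count 10, minimum total 15; 98.1% of reads), with TMM scaling, genotype as the only term and the robust quasi-likelihood F test. P-values were adjusted by Benjamini-Hochberg over all tested genes, and a call is an adjusted p under 0.05. The SE is the absolute log2 fold change over the square root of F. CPM are per 1000000 TMM-scaled reads, and RPKM divides CPM by the deposited gene length. The code was tested on simulated data. The members and lists were chosen with earlier results of these data known.

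All 33 members are named, with values per library for called members and 7 leading ones; other lists name up to 3 genes per direction by smallest p. Deviations from the group mean were close to uncorrelated between libraries of the same replicate number (-0.04, 0.02 and -0.05). This cannot exclude a shared litter or sort. Promoters are RefSeq windows; protein sequences are not used here.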

Additional observations from a re-analysis of the deposited data

How the results depend on the processing

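Of the 12 members higher, Hspa5, Dnajc3, Pdia6, Creld2, Prdx4 and Manf kept their call in all 21 other fits, and no fit called a member lower. The count of higher members was 12 under RLE scaling, no filter, DESeq2, limma-voom, non-robust estimation, a gene length offset and thinned libraries. It was 10 under upper-quartile scaling, at least 10 reads in every library and the replicate block, 8 under library totals, 11 under the block with length offset and under the GC content offset, and 9 under the block with GC content offset; the last 2, chosen after seeing the data as was leaving out ribosomal and mitochondrial genes, took the call from Canx, and the last also from Hsp90b1 (adjusted p = 0.0647) and Tmx1 (0.0536). Single libraries left out gave 9 to 12. With the fold limit it was 5. The members' median was 0.45 under upper-quartile scaling, 0.38 under library totals, 0.47 with at least 10 reads in every library, and 0.47 to 0.59 with single libraries left out, lowest without control replicate 3. Over all genes, higher calls ranged from 319 to 921 and lower calls from 238 to 687 across these fits, against 664 and 512.

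The 2 cytosolic and mitochondrial chaperones called higher became 0 with the fold limit, upper-quartile scaling, library totals, at least 10 reads, the replicate block, thinned libraries and the GC content offset with or without the block, 1 without robust estimation and under the block with length offset, 4 by DESeq2, and 0 to 3 with single libraries left out; the 3 called lower became 1 with the fold limit and 2 to 3 with single libraries left out. The 1 other ER folding gene called lower became 2 with at least 10 reads and by limma-voom, and 0 to 2 with single libraries left out. For UPR and ERAD genes, 0 to 1 were lower and 4 to 5 higher with single libraries left out.

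Signs turned for genes near 0. Ppib was -0.052 under upper-quartile scaling and -0.12 under library totals, where Dnajb9 was -0.0048, Erp29 -0.0155 and Fkbp2 -0.0159. Tmx3 was 0.013 without the filter and 0.066 by limma-voom, Dnajb9 -0.0075 with the GC content offset and Ganab 0.019 with the block and GC content offset. With single libraries left out, Dnajb9 ranged from -0.0082 to 0.38, Erp29 from -0.083 to 0.69, Fkbp2 from -0.31 to 0.38, Ganab from -0.25 to 0.18, Hyou1 from -0.032 to 1.04, Ppib from -0.32 to 0.49, Tmx3 from -0.19 to 0.26 and Uggt1 from -0.37 to 0.0099. The cause was not tested for any of these. The sources do not say what the replicate numbers mark, and the block left the direction of the called members as it was. It ended the calls of Canx (adjusted p = 0.0545), P4hb (0.0558) and Eef1g (0.0585), and Hsp90ab1 lost its call under the block with the length offset (0.0747) or the GC content offset (0.0787). Low members rest on few reads, such as 74 over all libraries for Ppib and 40 for Txndc5.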
